A study of Mus musculus with 6 samples.

Results

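The genes described here make cholesterol and isoprenoids or govern their level. They are enzymes of the mevalonate and sterol routes, regulators of these enzymes and proteins that move or dispose of cholesterol. A list of 29 gene names was matched to the probe annotation of the array. Of these, 28 were found on a probe set with exactly 1 gene symbol, out of 19938 genes tested, and Acat2 was not analysed here. Fdft1 and Idi1 each had a second probe set, and the brighter of the pair was used.

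The arrays came from mouse embryonic stem (ES) cells, 3 arrays of wild-type cells (replicates 1, 2 and 3, called control in the labels) and 3 of Satb1-/- cells (knockout replicates 1-1, 1-2 and 2-1, named as clones). Both genotypes carried a HygroTK reporter, which gives resistance to hygromycin, in the Oct4 locus, and both were grown with LIF and serum on irradiated feeder cells for 3 days under hygromycin, so that cells expressing Oct4 were selected. Feeders were removed by settling before total RNA was taken, and a remainder may have stayed in the samples. It is not stated whether replicates were independent cultures, whether knockout replicates 1-1 and 1-2 share a parent clone, or how the sex and strain of the clones compare with wild type. The p-values therefore measure only the spread between these arrays, which may be technical. All values are log2 expression values after RMA (robust multi-array average), in which 1 unit is a doubling, and a difference is knockout minus wild type. A level is compared only with the same gene on other arrays, since probe sets of different genes respond differently.

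Cholesterol is built from acetyl-CoA. The mevalonate pathway first yields isoprenoid units, which are joined to farnesyl diphosphate and then either lengthened for the lipid tails of proteins such as RAS and RAB or joined head to head to squalene, the first compound committed to sterols. When sterols in the endoplasmic reticulum run low, the escort protein SCAP carries the SREBP transcription factors to the Golgi, where they are cut free to enter the nucleus and switch on most of these genes together, while the INSIG proteins hold SCAP back when sterols are plentiful. Oxysterols act in the other direction through the LXR receptors, which switch on cholesterol export. In dividing cells such as ES cells the pathway serves new membrane and the lipid anchors of signalling proteins.

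SREBP binds sterol response elements in promoters beside the factor NF-Y, which binds CCAAT boxes. RefSeq promoter windows (build GRCm38.p6, from 250 bases before to 50 after each start) were matched for 23 of the 28 genes. They were searched on both strands for 3 motifs that do not overlap in the printed stretches. The sterol response element TCACNCCAC was in the window of 1 gene (4.35%), Hmgcs1, against 1.44% of the 27025 genes with a window. The CCAAT box CCAAT was in windows of 21 genes (91.3%), against 41.1% of all genes with a window and 42.7% of the 8035 that were brighter on the arrays than the median gene. The direct repeat 4 element of the oxysterol receptors, searched as GGTNA and a second GGTNA with 5 free bases between, was in windows of Abca1 and Srebf1 (8.70%), against 0.818% of all. The stretches printed are the 250 bases before the start of Hmgcs1, the gene with the sterol element, of Ebp and Insig1, the genes with the highest spread between wild-type arrays, and of Abca1, which carries the oxysterol motif and had a low spread. Capitals mark these motifs, and CCAAT appears as ATTGG where it lies on the other strand. A match describes the letters and is not evidence of binding. Only exact matches in these windows were counted, so a missing match does not show that a gene lacks such an element.
Hmgcs1: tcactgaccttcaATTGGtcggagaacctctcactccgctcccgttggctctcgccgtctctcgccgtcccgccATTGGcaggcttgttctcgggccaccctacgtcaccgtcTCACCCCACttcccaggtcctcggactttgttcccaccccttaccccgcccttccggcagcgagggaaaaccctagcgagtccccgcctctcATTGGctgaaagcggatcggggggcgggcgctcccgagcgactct
Insig1: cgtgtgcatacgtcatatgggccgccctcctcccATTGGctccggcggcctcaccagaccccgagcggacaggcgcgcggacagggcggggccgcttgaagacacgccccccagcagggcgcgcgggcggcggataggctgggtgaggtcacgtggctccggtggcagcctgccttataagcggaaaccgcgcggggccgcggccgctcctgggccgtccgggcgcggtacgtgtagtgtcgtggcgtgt
Ebp: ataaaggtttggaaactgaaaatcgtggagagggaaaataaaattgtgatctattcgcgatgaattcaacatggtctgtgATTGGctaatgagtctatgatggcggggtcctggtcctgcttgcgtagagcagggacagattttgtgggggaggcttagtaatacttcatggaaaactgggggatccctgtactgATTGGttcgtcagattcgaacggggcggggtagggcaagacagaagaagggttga
Abca1: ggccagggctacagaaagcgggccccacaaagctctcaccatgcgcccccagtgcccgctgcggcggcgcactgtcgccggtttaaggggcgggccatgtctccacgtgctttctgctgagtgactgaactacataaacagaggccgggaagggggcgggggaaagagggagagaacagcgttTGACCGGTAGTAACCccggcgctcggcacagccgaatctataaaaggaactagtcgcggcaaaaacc
These stretches lie at chr13:119690101-119690350 on the plus strand for Hmgcs1, at chr5:28071162-28071411 on the plus strand for Insig1, at chrX:8193513-8193762 on the minus strand for Ebp and at chr4:53159896-53160145 on the minus strand for Abca1. In Hmgcs1 the sterol element begins 137 bases before the start, with CCAAT boxes on either side, and in Abca1 the oxysterol motif begins 67 bases before the start.

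Across the series, Pearson's r over all genes was 0.987 to 0.990 between wild-type arrays, 0.993 to 0.995 between knockout arrays and 0.985 to 0.990 between the groups. Satb1 itself fell by 0.67 on the log2 scale (SE 0.12, limma adjusted p = 0.022), from 5.12, 4.99 and 5.31 on the wild-type arrays to 4.38, 4.47 and 4.57 on the knockout arrays. This call was lost without wild-type replicate 1 or any 1 knockout array (adjusted p = 0.062 to 0.128), and also when knockout replicates 1-1 and 1-2 were averaged into 1 sample (-0.64, adjusted p = 0.118). The position of its probes relative to the deletion is not known here. All 8 ES cell markers were brighter than the median gene. Of these, 2 were called higher in knockout and 0 lower, against 0.923% and 0.476% of all genes. The calls were Nanog (1.09, limma adjusted p = 0.0011) and Esrrb (0.56, adjusted p = 0.044). Pou5f1 read 10.13, 10.0 and 10.53 in wild type and 9.82, 9.78 and 9.90 in knockout (-0.39, adjusted p = 0.31). Of the 8 differences 4 were above 0. Feeder fibroblast markers were also present: Col1a1 read 7.81 to 8.19, and the summed linear level of 14 markers was 1565 to 1965 in wild type and 1801 to 2264 in knockout. The trophectoderm markers Krt8 and Krt18 fell, and the summed level of 6 markers of that layer was 806 to 2043 in wild type and 249 to 299 in knockout. That sum was carried by Krt8 (-2.72) and Krt18 (-2.48). The other 4 markers, Cdx2, Gata3, Hand1 and Elf5, overlapped between the groups and were not called (-0.31 to 0.07, limma adjusted p = 0.62 to 0.93), and Hand1 alone of them was brighter than the median gene. The part of such cells in the values below was not tested. In RNA from whole cultures, fewer cells of a type and less RNA per cell cannot be told apart.

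Of the 28 genes, 0 passed the test in either direction (limma with a threshold of 0.05 on the p-value after Benjamini-Hochberg adjustment across the whole table), where 0.923% of all genes tested were higher and 0.476% lower, 1.4% together. At an unadjusted limma p under 0.05 there were 3, Ggps1, Sqle and Ebp, all higher in knockout (10.7% of the 28), against 5.92% of all genes higher, 4.55% lower and 10.5% in either direction. The groups did not overlap in 3 genes, Ggps1, Sqle and Srebf2, again 10.7% and all higher in knockout, against 8.18% of all genes higher, 6.97% lower and 15.1% in either direction, and 20% of the genes brighter than the median gene, a class that all 28 belong to. In either direction these shares were close to or below the background. In the higher direction alone they were above the shares of all genes, on 3 genes each. No share in that direction alone was taken for the brighter genes. The median difference over the 28 was 0.08 (range -0.26 to 0.56), against -0.0044 over all genes and 0.02 over brighter genes, and 23 of the 28 were above 0, against 48.5% of all genes and 53.9% of brighter genes. Without wild-type replicate 1 the median was 0.01, and without wild-type replicate 3 it was 0.21, so that it rested on which wild-type array was counted.

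A missed threshold does not show equal levels, so the intervals are given. The 95% interval of the difference had a half-width of 0.31 log2 units at the median (0.23 to 0.47). For 24 of the 28 genes it lay wholly within a 1.5-fold change in either direction, and for 27 within a 2-fold change. The genes outside 1.5-fold were Sqle, Msmo1, Ebp and Insig1, and Ebp alone reached past 2-fold. In limma the variance of each gene is drawn toward that of all genes, with 1 variance for both groups. The 28 had a median SD of 0.26 in wild type and 0.09 in knockout, against 0.16 and 0.11 over all genes. Intervals from the spread of each gene alone were not computed and could be wider. The counts also take the arrays as independent, which is not stated.

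**Figure D1:**
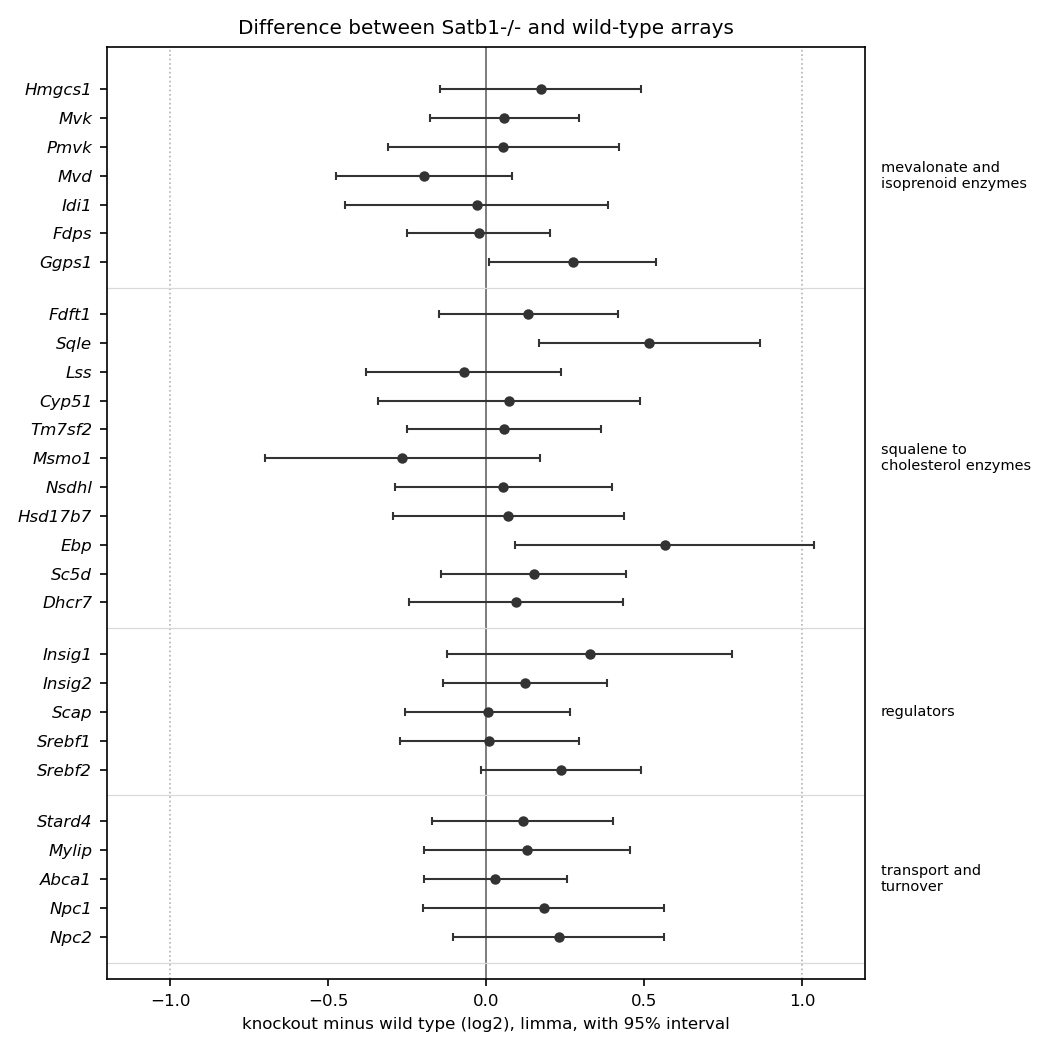
Difference between Satb1-/- and wild-type arrays for the 28 genes, in log2 units (horizontal axis), ordered by role (vertical axis). Points are limma estimates over 3 arrays per group, bars are 95% intervals and dotted lines mark a 2-fold change. The points lie between -0.26 (Msmo1) and 0.56 (Ebp), and 1 bar, that of Ebp, reaches past 2-fold.

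The mevalonate and isoprenoid enzymes had a median difference of 0.05 over 7 genes, with 0 called. Hmgcs1 encodes HMG-CoA synthase, which makes the compound that is then reduced to mevalonate. It read 8.13, 8.42 and 8.60 on the wild-type arrays and 8.41, 8.75 and 8.51 on the knockout arrays. The groups overlapped, with wild-type replicate 1 lowest, and the difference was 0.17 (SE 0.14, limma adjusted p = 0.80). Mvk and Pmvk encode the kinases that add phosphates to mevalonate in turn. Mvk was level on wild-type arrays at 5.85, 5.82 and 5.85, and read 6.03, 5.77 and 5.89 in knockout. Pmvk was spread in wild type, at 5.79, 6.05 and 6.50, with knockout values of 6.14, 6.27 and 6.10 inside that range. So the successive kinases differed in spread, with SDs of 0.014 and 0.36 over the wild-type arrays, while neither passed the test between groups (0.06 and 0.05, adjusted p = 0.94 and 0.97).

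Mvd encodes the decarboxylase that gives the first isoprenoid unit, and Idi1 the isomerase that turns it into its reactive partner. Mvd read 6.90, 6.99 and 7.31 in wild type and 6.89, 6.92 and 6.80 in knockout, a difference of -0.20 (SE 0.13, adjusted p = 0.69). Idi1 read 7.92, 8.17 and 8.77 in wild type against 8.16, 8.27 and 8.34 in knockout. Wild-type replicate 1 was below and replicate 3 above all knockout values of Idi1, so the means were nearly equal (-0.03, SE 0.19) while the wild-type arrays spanned 1.81-fold. Its second probe set showed the same order, at 7.57, 7.94 and 8.57 in wild type and 7.96, 8.07 and 8.22 in knockout.

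Fdps encodes the synthase of farnesyl diphosphate, where the routes to sterols and to longer isoprenoids part, and Ggps1 that of geranylgeranyl diphosphate, a longer isoprenoid that is attached to RAB proteins. Fdps hardly varied, at 8.47, 8.47 and 8.57 in wild type and 8.44, 8.57 and 8.43 in knockout (-0.02, SE 0.10, adjusted p = 0.98). Ggps1 read 7.0, 7.23 and 7.33 in wild type and 7.57, 7.38 and 7.44 in knockout. All knockout values of Ggps1 lay above all wild-type values, with a gap smaller than the range of either group, and the difference of 0.27 (SE 0.12, 95% interval 0.01 to 0.54) had an unadjusted p of 0.043 and a limma adjusted p of 0.45.

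The enzymes from squalene to cholesterol had a median difference of 0.07 over 11 genes, with 0 called. Fdft1, squalene synthase, read 9.01, 9.31 and 9.46 in wild type and 9.37, 9.42 and 9.38 in knockout, a difference of 0.13 (SE 0.13, adjusted p = 0.84). Sqle, squalene epoxidase, a rate-limiting step of the sterol branch, read 7.47, 8.0 and 8.13 in wild type and 8.36, 8.40 and 8.39 in knockout. The knockout values of Sqle lay within 0.045 of each other and above all wild-type values, and wild-type replicate 1 was well below the other wild-type arrays. The difference was 0.52, a fold of 1.43 (95% interval 1.12 to 1.82), with an SE of 0.16, an unadjusted p of 0.0081 and a limma adjusted p of 0.197. Leaving out 1 array gave differences of 0.32, without wild-type replicate 1, to 0.65, and adjusted p-values of 0.0502 to 0.531.

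Lss, which closes squalene epoxide into lanosterol, and Cyp51, which takes a methyl group off lanosterol, were spread in wild type around means close to those of knockout. Lss read 6.94, 7.12 and 7.48 in wild type and 7.07, 7.18 and 7.08 in knockout (-0.07, SE 0.14). Cyp51 read 6.56, 7.19 and 7.42 in wild type against 7.13, 7.10 and 7.16 in knockout (0.07, SE 0.19). For Cyp51 the wild-type arrays spanned 1.81-fold and the knockout arrays 0.06 log2 units. Tm7sf2, a sterol reductase, was lowest in wild-type replicate 2 at 5.32, against 5.42 and 5.83 in replicates 1 and 3, and read 5.63, 5.60 and 5.52 in knockout.

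Msmo1, Nsdhl and Hsd17b7 act together to remove the next pair of methyl groups. Msmo1, the methyl oxidase, read 9.28, 9.95 and 9.75 in wild type and 9.03, 9.67 and 9.49 in knockout. It had the lowest difference of the 28 (-0.26, SE 0.20, adjusted p = 0.76) and the highest spread between knockout arrays (SD 0.33). Nsdhl read 7.26, 7.36 and 7.89 in wild type and 7.58, 7.57 and 7.53 in knockout, and Hsd17b7 read 5.74, 5.74 and 6.37 against 6.11, 5.94 and 6.02. In both, wild-type replicate 3 was above every other array and the differences were 0.06 and 0.07 (adjusted p = 0.96 for each).

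The last steps shift and add double bonds in the rings. Ebp, the sterol isomerase, had the largest difference and the largest spread: 4.89, 5.33 and 5.93 in wild type and 5.84, 6.06 and 5.94 in knockout. The groups overlapped only through wild-type replicate 3, and the difference was 0.56 (SE 0.21, 95% interval 0.09 to 1.04), with an unadjusted p of 0.024 and a limma adjusted p of 0.347. Without wild-type replicate 3 it was 0.84 and passed the test (adjusted p = 0.011), which was the only call among the 28 in any of the settings tried, and without wild-type replicate 1 it was 0.32 (adjusted p = 0.623). Sc5d, which adds a double bond, read 6.88, 7.02 and 7.36 in wild type and 7.28, 7.21 and 7.22 in knockout. Dhcr7, which reduces a late precursor to cholesterol, read 6.88, 7.19 and 7.40 against 7.02, 7.40 and 7.33. Neither passed the test (0.15 and 0.10, adjusted p = 0.82 and 0.93).

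The regulators had a median difference of 0.12 over 5 genes, with 0 called. All 5 were above 0, as were all 5 genes of transport and turnover, against 53.9% of brighter genes. Of the regulators, Scap (0.0047) and Srebf1 (0.0094) were near 0 and changed sign under other settings. Srebf2, whose SREBP2 protein mainly drives cholesterol synthesis, read 8.25, 8.41 and 8.29 in wild type and 8.41, 8.71 and 8.53 in knockout. Its groups did not overlap but touched within rounding, and the difference was 0.24 (SE 0.11, 95% interval -0.02 to 0.49, limma adjusted p = 0.52). Srebf1, whose SREBP1 proteins mainly drive fatty acid synthesis, read 7.05, 7.05 and 7.45 in wild type and 7.15, 7.25 and 7.18 in knockout, a difference of 0.01 (SE 0.13). Scap, the escort, read 6.64, 6.71 and 7.0 in wild type and 6.81, 6.78 and 6.78 in knockout, with a knockout SD of 0.014. For Srebf1 and Scap wild-type replicate 3 was the highest of all 6 arrays, which was not so for Srebf2.

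Insig1 and Insig2 retain SCAP, and Insig1 is itself a strong target of SREBP, which makes it a common readout of the pathway. Insig1 read 7.82, 8.62 and 8.57 in wild type and 8.45, 8.90 and 8.65 in knockout. Wild-type replicate 1 stood apart, 0.79 below replicate 2 and 0.75 below replicate 3, and the difference between groups was 0.33 (SE 0.20, limma adjusted p = 0.68), or 0.07 without that array. Insig2 read 6.78, 7.09 and 7.05 in wild type and 7.19, 7.03 and 7.06 in knockout (0.12, SE 0.12).

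The transport and turnover genes had a median difference of 0.13 over 5 genes, again with 0 called. Stard4, a carrier of free cholesterol, read 6.30, 6.46 and 6.56 in wild type and 6.41, 6.79 and 6.47 in knockout. Mylip, a ubiquitin ligase that degrades lipoprotein receptors and is an LXR target, read 5.52, 5.97 and 5.91 against 5.73, 6.11 and 5.96. Abca1, the exporter of cholesterol and another LXR target, was flat, at 5.20, 5.19 and 5.25 in wild type and 5.32, 5.14 and 5.26 in knockout. Mylip and Abca1 thus gave differences of 0.13 and 0.03, with adjusted p-values of 0.88 and 0.97.

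Npc1 and Npc2 hand cholesterol out of the lysosome. Npc1 read 7.78, 8.34 and 7.60 in wild type and 8.08, 8.18 and 8.01 in knockout, and it was the only 1 of the 28 whose lowest wild-type value was in replicate 3. Npc2 read 7.49, 8.07 and 7.65 in wild type and 7.84, 8.08 and 7.97 in knockout. Both were highest in wild-type replicate 2, and their differences were 0.18 (SE 0.17) and 0.23 (SE 0.15), with adjusted p-values of 0.84 and 0.70.

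**Figure D2:**
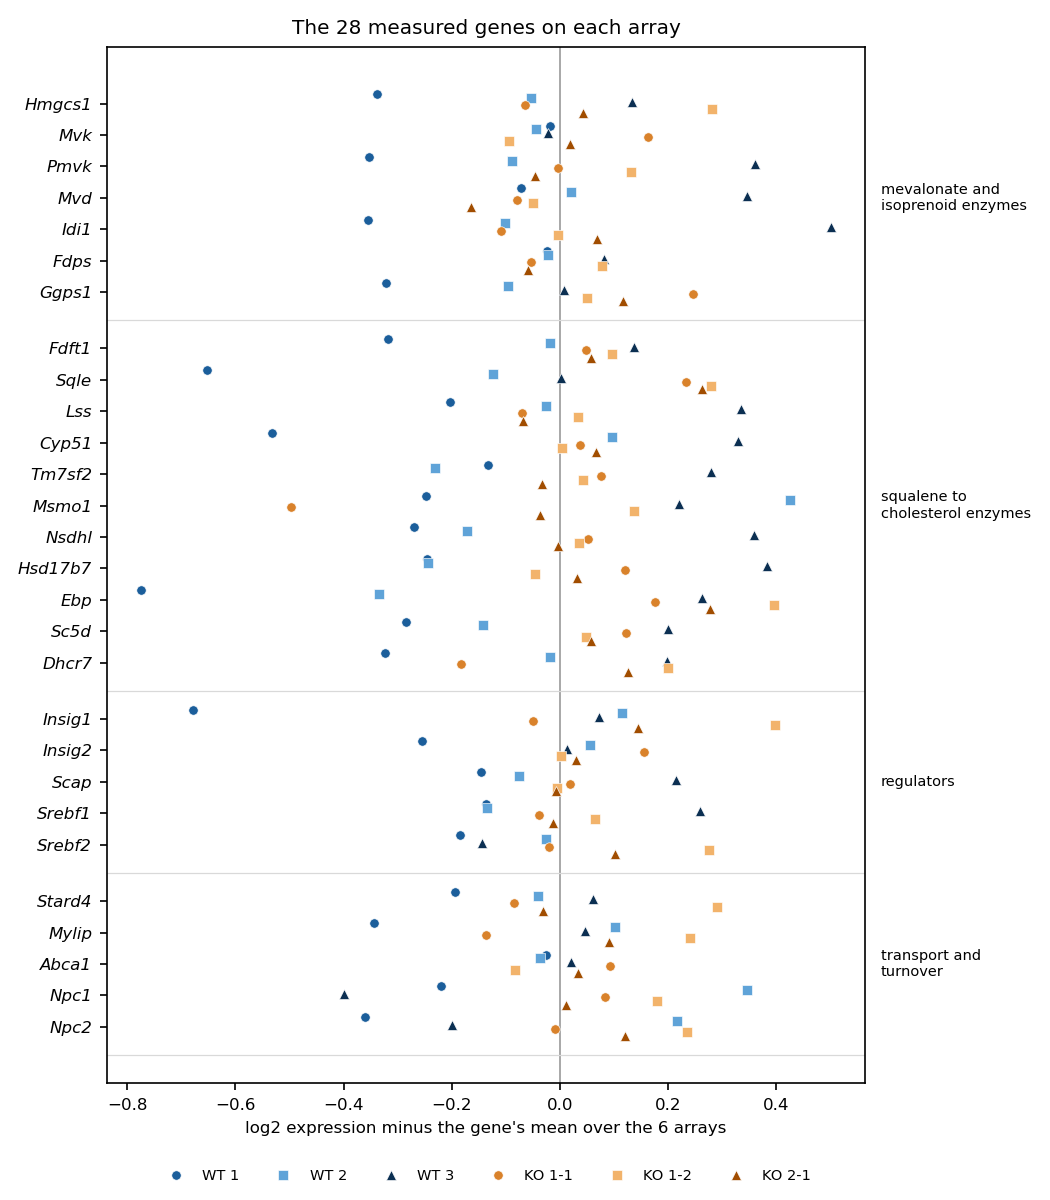
Log2 expression of each of the 28 genes on each of the 6 arrays, minus the mean of that gene over the arrays (horizontal axis), by gene and role (vertical axis). Blue symbols are wild-type arrays and orange symbols knockout arrays. Wild-type replicate 1 is the lowest wild-type array in 24 genes and replicate 3 the highest in 20. The median deviation of the 28 is -0.26 and 0.17 on those arrays and 0.01 to 0.07 on the knockout arrays.

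The median wild-type SD of the 28 was above their median difference between the groups (0.08), in which opposite signs cancel. The same held over all genes (median difference -0.0044) and over brighter genes (0.02). The median SD of the 28 genes was 0.26 over the wild-type arrays and 0.09 over the knockout arrays, against 0.16 and 0.11 over all genes and 0.19 and 0.10 over brighter genes. In 23 of the 28 (82.1%) the wild-type SD exceeded the knockout SD, against 76.9% of brighter genes. By role the median wild-type SD was 0.22 for the mevalonate and isoprenoid enzymes, 0.34 for the enzymes from squalene to cholesterol, 0.19 for the regulators and 0.24 for transport and turnover. In all 11 genes from squalene to cholesterol the wild-type SD was the greater. The genes with a wild-type SD below 0.1 were Mvk, Fdps, Srebf2 and Abca1, and those above 0.4 were Ebp, Insig1, Cyp51 and Idi1.

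**Figure D3:**
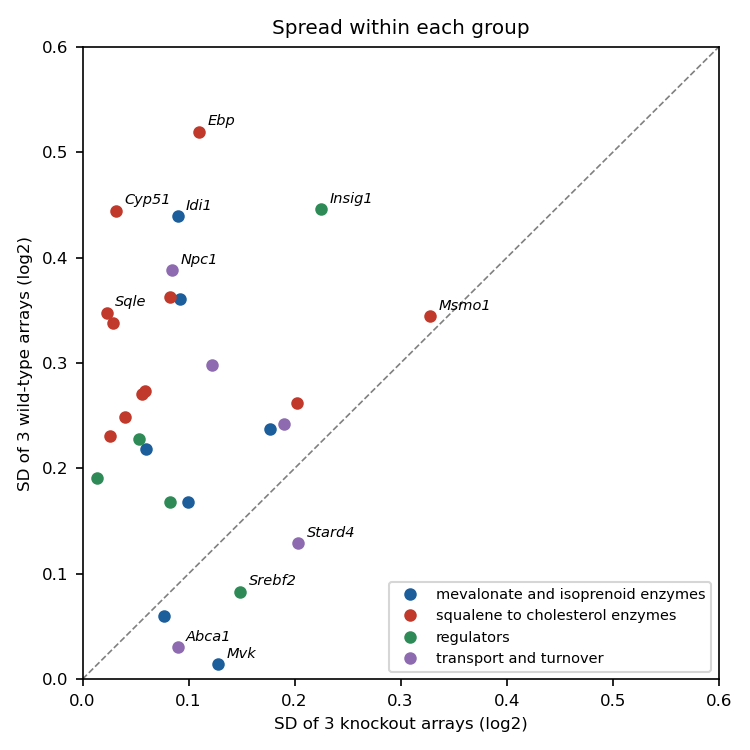
SD over the 3 wild-type arrays (vertical axis, log2 units) against SD over the 3 knockout arrays (horizontal axis, log2 units) for the 28 genes, coloured by role, with a dashed line where they are equal. Of the 28 points 23 lie above the line, with Ebp highest and Mvk, Fdps, Srebf2, Abca1 and Stard4 below it.

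The wild-type spread ran the same way in most of the genes. Wild-type replicate 1 was the lowest wild-type array in 24 of 28 genes (85.7%), against 51.4% of brighter genes and 32.3% of all genes. Wild-type replicate 3 was the highest in 20 (71.4%), against 52.6% and 33.8%. From replicate 1 to replicate 3 the median step over the 28 was 0.44, against 0.18 over brighter genes, and 26 of 28 were higher in replicate 3. The step was 0.54 for the enzymes from squalene to cholesterol, where 11 of 11 were higher, 0.42 for the mevalonate and isoprenoid enzymes, 0.36 for the regulators and 0.16 for transport and turnover. Ebp had the largest step (1.04), followed by Cyp51 (0.86) and Idi1 (0.86), and Npc1 the lowest (-0.18).

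The knockout arrays lay closer together, and knockout replicate 1-2 was the highest of them in 17 of 28 genes (60.7%), against 28.9% of brighter genes. The 8 genes with the widest knockout spread were Msmo1 (SD 0.33), Insig1 (0.23), Stard4 (0.20), Dhcr7 (0.20), Mylip (0.19), Hmgcs1 (0.18), Srebf2 (0.15) and Mvk (0.13). Mvk was lowest on that array, and the other 7 were highest there. Feeder markers were lowest there among the knockout arrays, with a median deviation of -0.04 against 0.23 and 0.18, and their part in this order was not tested.

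Part of this pattern was shared by bright genes in general, and it depended on the normalization. On wild-type replicate 1 the brighter genes had a median deviation of -0.10 from their mean over the 6 arrays and on replicate 3 of 0.06, where the 28 had -0.26 and 0.17. After a second quantile normalization, which gives all arrays the same distribution, the median wild-type SD of the 28 was 0.16, the same to 2 decimals as that of the brighter genes (0.16). Wild-type replicate 1 was then the lowest in 16 of 28 (57.1%, against 29.9% of brighter genes) and the step from replicate 1 to replicate 3 was 0.23 (against -0.0024), with 23 of 28 higher (82.1%, against 49.6%). With each array centred instead, the median wild-type SD of the 28 was 0.28 and the step 0.50. Centring moves every gene on an array by the same amount, so this rise in the step was shared by all genes. With the mean of all probe sets they were 0.26 and 0.44. No test was made of these shares, since the genes of a pathway are not independent. The labels give no batch or scan date for the arrays, and the source of this spread was not tested.

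Across the 6 arrays the genes varied together, with a median Pearson's r of 0.52 over the 378 pairs. The median with the brighter genes was 0.22 and that with all other genes -0.04. After the mean of each group was subtracted from its arrays, the median Pearson's r over the 378 pairs was 0.60, with 84.4% of pairs above 0, against a median of 0.29 between the 28 and the brighter genes and of -0.05 between the 28 and all other genes. The 6 points share 1 normalization and wild-type replicate 1 carries much of the relation, so this describes these arrays and has no p. The values of r that follow are also after this subtraction, unless stated. Within the enzymes from squalene to cholesterol the median r was 0.84 over 55 pairs, within the mevalonate and isoprenoid enzymes 0.71 over 21, within the regulators 0.51 over 10, and within transport and turnover 0.23 over 10. Over all 28 the median r was 0.31 without wild-type replicate 1, 0.57 without replicate 3 and 0.32 after the second quantile normalization, where the median with brighter genes was -0.01.

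Some genes kept apart from the rest. With group means subtracted, the median r of a gene with the other 27 was -0.21 for Npc1, -0.17 for Mvk and 0.09 for Abca1. It was 0.18 for Npc2 and 0.20 for Srebf2, and it reached 0.84 for Lss and 0.83 for Pmvk. Without the subtraction these were, in the same order, 0.03, -0.11, 0.10, 0.43, 0.24, 0.66 and 0.70. Npc1 and Npc2 followed each other (r = 0.83). Insig1 ran with Mylip (0.97), Msmo1 (0.92) and Hmgcs1 (0.91), genes in which wild-type replicate 1 was low and replicates 2 and 3 were closer together. Without the subtraction the r of Insig1 was 0.96 with Mylip, 0.51 with Msmo1 and 0.93 with Hmgcs1. Srebf1 ran with Lss (0.95), both highest in wild-type replicate 3, and hardly with Srebf2 (0.07). The pairs named here were chosen after their values were seen.

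**Figure D4:**
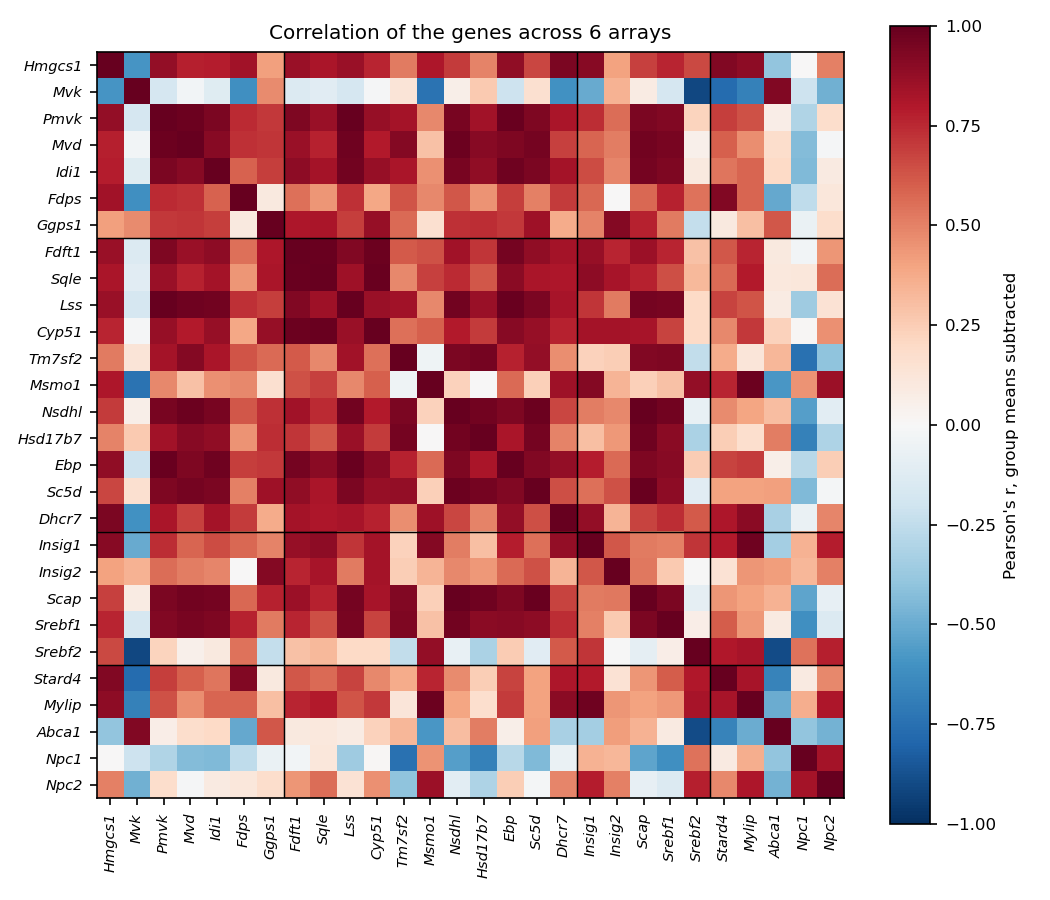
Pearson's r between the 28 genes across the 6 arrays after each group's mean was subtracted (colour, from -1 in blue to 1 in red), with both axes listing the genes in order of role and black lines between roles. The block of enzymes from squalene to cholesterol has a median r of 0.84, and the rows of Mvk, Srebf2, Abca1, Npc1 and Npc2 are the palest or blue.

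The brighter genes of chromosome 8 had a lowered median in the knockout arrays, so each gene was set beside its neighbours. These were the 10 brighter genes on either side where the chromosome had them. The other chromosomes that hold any of the 28 had medians of -0.0016 (chromosome 7) to 0.05 (chromosome 9). Mvd and Msmo1 lie on chromosome 8, whose 569 other brighter genes had a median difference of -0.29. The 20 neighbours of Mvd had a median of -0.29 and those of Msmo1 of -0.38, with 1 of 20 above 0 for each, so the differences of -0.20 and -0.26 were in the direction of their surroundings. These were the lowest values among the 28, and the 26 genes on other chromosomes had a median of 0.11, with 23 above 0. The neighbours of Abca1 on chromosome 4 had a median of 0.18, with 17 of 20 above 0, while Abca1 differed by 0.03. For Sqle the 20 neighbours on chromosome 15 had a median of 0.04 and all were below it, and for Ebp on the X chromosome the neighbours had a median of 0.19 with 95% below it. Ggps1 on chromosome 13 was above 80% of its neighbours (median 0.04). Sqle, Ebp and Ggps1 are the genes with an unadjusted limma p under 0.05, so their high places were partly set by that choice. Over the rest of the 28 the share of neighbours below ran from 15% (Lss and Abca1) to 95% (Srebf2).

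Other genes of lipid synthesis were followed in 5 lists. Of 13 fatty acid synthesis genes, many of them targets of SREBP1, 1 was higher and 0 lower by limma, and all 13 differences were above 0 with a median of 0.24. Among all genes 0.923% were called higher and 48.5% had differences above 0, or 53.9% of the brighter genes, to which all 13 belong. The call was Acacb, the acetyl-CoA carboxylase of mitochondria, which makes the malonyl-CoA that restrains fatty acid oxidation. It read 5.17, 5.39 and 5.28 in wild type and 5.90, 6.28 and 5.95 in knockout, a difference of 0.76, a fold of 1.70 (SE 0.13, limma adjusted p = 0.017). Every knockout value was above every wild-type value, by at least 0.5 log2 units. When wild-type replicate 1, knockout replicate 1-2 or knockout replicate 2-1 was left out, Acacb missed the threshold (adjusted p = 0.065, 0.086 and 0.076), with differences of 0.64 to 0.81. The genes of this list also had wild-type replicate 1 low, with a median deviation of -0.37, and replicate 3 at 0.01.

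Of 12 measured genes that use isoprenoids, 0 were higher and 1 was lower, against 0.923% and 0.476% of all genes, with a median of 0.04. The gene called was Fnta, the subunit shared by the enzymes that attach farnesyl and geranylgeranyl groups to proteins. Fnta read 8.62, 8.68 and 8.81 in wild type and 8.04, 7.80 and 7.94 in knockout, a fall of 0.78 to a fold of 0.58 (SE 0.11, limma adjusted p = 0.0067), with no overlap. It lies on chromosome 8, where its 20 neighbours had a median difference of -0.42 and 10% of them were below it. Without knockout replicate 1-2 or 2-1 the call was missed (-0.71 and -0.79, adjusted p = 0.055 and 0.053). Of the genes for SREBP processing and reductase turnover (5 measured, median -0.02), oxysterol receptors and efflux (9, median -0.07) and uptake and esterification (8, median 0.09), 0 were called.

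**Figure D5:**
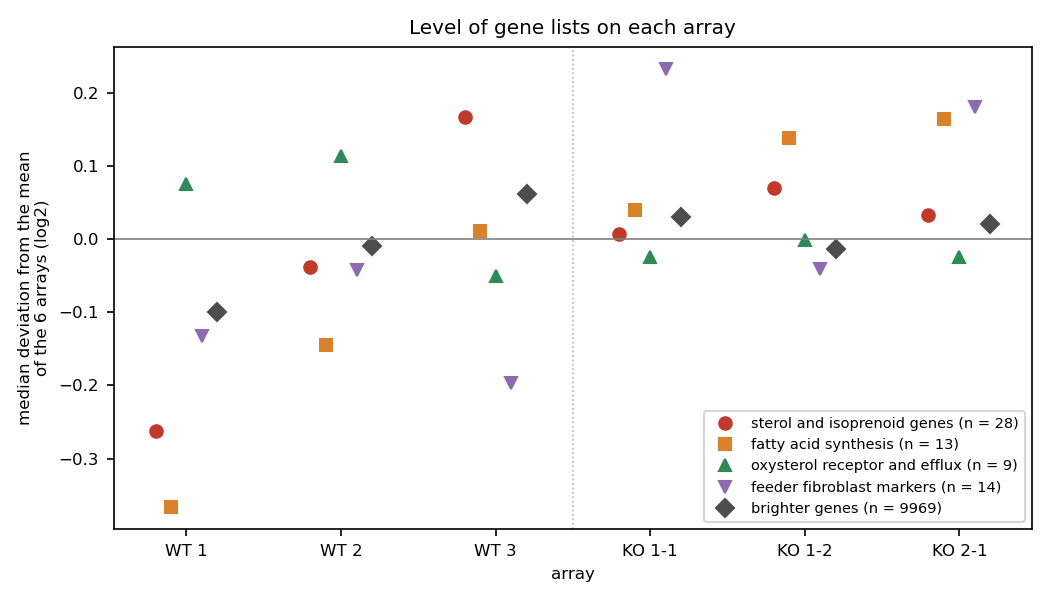
Median deviation of each gene list from the mean of its genes over the 6 arrays (vertical axis, log2 units) on each array (horizontal axis). The 28 sterol and isoprenoid genes go from -0.26 on wild-type replicate 1 to 0.17 on replicate 3 and lie between 0.01 and 0.07 on the knockout arrays, and fatty acid synthesis genes are also lowest on wild-type replicate 1 (-0.37), where oxysterol receptor and efflux genes stand at 0.08. All 13 fatty acid synthesis genes are brighter than the median gene and 7 of the 9 oxysterol genes are dimmer, and bright genes in general are low on that array (-0.10, against 0.01 over all genes).

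The marker lists did not all follow the 28 across wild-type arrays. The feeder markers had median deviations of -0.13, -0.04 and -0.20 on wild-type replicates 1, 2 and 3. On the knockout arrays they stood at -0.04 to 0.23, which raises the mean over all arrays. From the wild-type mean alone they stood at -0.03, 0.11 and -0.14, lowest on replicate 3. Of the 14 feeder markers 13 were brighter than the median gene, and brighter genes stood at -0.10 on replicate 1 against all arrays. The part of feeder cells in the sterol values was not tested. Again against the mean over all arrays, ES cell markers stood at -0.17, -0.01 and 0.01 in wild type and 0.06 to 0.09 in knockout. Trophectoderm markers stood at 0.12, -0.02 and 0.60 in wild type, with Krt8 at 10.09 and Krt18 at 9.66 on replicate 3. Among the wild-type arrays, replicate 3 was thus highest both in that list and in 20 of the 28 sterol genes. Of the 6 trophectoderm markers 3 were dimmer than the median gene. Whether trophectoderm cells were present, and their part in the sterol values, was not tested.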

How the data were processed

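RNA of 6 samples was labelled with biotin and hybridised to 1-colour arrays. Per the submitters' processing notes, the authors used RMA, which yields the deposited log2 value of each probe set on each array; the version of RMA is not stated. There were 35557 probe sets. The annotation of the platform gave 21789 of them exactly 1 symbol, 1621 several and 12147 none. Arrays have no read depth, and their number limits the precision. RMA compresses differences of dim genes.

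All 19938 genes were fitted in R 4.3.3 by lmFit and eBayes of limma 3.58.1, without covariates and with dim genes kept, and p-values were adjusted by Benjamini-Hochberg over all of them, with a threshold of 0.05. On simulated data for this comparison (19938 genes, 5 runs), 16.8% of changes of 0.5 log2 units and 74.2% of changes of 1 were found. The simulated noise was normal and independent between genes, with the same SD in both groups, and the changed genes were drawn at random. The 28 genes had unequal spread in the groups and varied together, so these shares are not rates for them. Named are all 28 genes, Satb1 and the called genes of the related lists, at most 4 per list. Marker genes and pairs of genes were also named. The genes and lists were chosen with earlier results of these data known. Other settings tried were leaving out each array, another probe set rule, normalization, centring, a filter, array weights, averaged clones and a trended prior. RefSeq (GRCm38.p6) gave promoters and gene order.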

Additional observations from a re-analysis of the deposited data

How the results depend on the processing

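No paired analysis was possible because the numbers of the wild-type arrays and of the knockout clones are not shared. Leaving out 1 array gave 0 to 1 higher and 0 lower genes among the 28 (the 1 being Ebp, without wild-type replicate 3), and 74 to 356 higher and 19 to 124 lower among all genes, against 184 and 95. Over the same settings the median difference of the 28 was 0.01 to 0.21, their wild-type SD 0.16 to 0.31 and their median r 0.31 to 0.75. The SD was 0.16 without wild-type replicate 1 and 0.17 without replicate 3. No other setting called any of the 28. Among all genes, array weights gave 373 higher and 235 lower, averaging knockout 1-1 and 1-2 gave 90 and 27 (76.9% higher), a second quantile normalization 242 and 183 (56.9% higher) and centring each array 159 and 47 (77.2% higher), against 65.9% as reported. The second quantile normalization lowered the wild-type SD of the 28 from 0.26 to 0.16 and their median r from 0.60 to 0.32. The cause was not tested. Centring each array gave an SD of 0.28 and a median r of 0.69, and the mean of all probe sets gave 0.26 and 0.60. The median difference of the 28 off chromosome 8, chosen after seeing the data, was 0.11.

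Small differences changed sign in 16 of the 28 genes, none of which was called. With array weights Idi1 was 0.040 and Npc1 -0.045, with the mean of all probe sets Idi1 was 0.015, with centring Fdps was 0.0052, and with the second quantile normalization Scap was -0.048 and Srebf1 -0.040. Without 1 array the lowest and highest values were -0.0090 and 0.12 for Mvk, -0.11 and 0.25 for Pmvk, -0.21 and 0.21 for Idi1, -0.068 and 0.011 for Fdps, -0.19 and 0.079 for Lss, -0.18 and 0.25 for Cyp51, -0.045 and 0.21 for Tm7sf2, -0.066 and 0.25 for Nsdhl, -0.034 and 0.28 for Hsd17b7, -0.042 and 0.22 for Dhcr7, -0.067 and 0.11 for Scap, -0.057 and 0.14 for Srebf1, -0.00050 and 0.19 for Stard4, -0.0095 and 0.23 for Mylip and -0.010 and 0.078 for Abca1.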
